A study of Mus musculus with 12 samples.

Results

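Tumour necrosis factor (TNF) and its receptor family were followed here as 10 genes, chosen by name with earlier results of these data known. They were the ligand genes Tnf, Tnfsf10, Tnfsf12 and Tnfsf13b and the receptor genes Tnfrsf1a, Tnfrsf1b, Tnfrsf11a, Tnfrsf12a, Tnfrsf21 and Fas. All 10 symbols matched 1 Ensembl identifier each in both count tables, which list 35697 genes for the sham and TBI mice and 55637 loci for the zileuton experiment. All 10 passed the filter on low counts in both comparisons, Tnf in the first of them only through its counts in TBI mice, as it had fewer than 10 counts in every sham mouse.

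TNF family ligands are trimeric proteins on the cell surface, and several, TNF among them, are released by proteases. Some of their receptors carry a death domain, as TNFR1 and FAS do, and can assemble caspase-activating complexes. Others bind TRAF adaptors directly, as TNFR2 and FN14 do. Both of these kinds can reach the NF-kappaB transcription factors. In injured brain, microglia and blood-derived myeloid cells are known sources of TNF, while TNFR1 is found on most cells and TNFR2 mainly on microglia, endothelium and leukocytes.

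RNA was sequenced from brain tissue of adult male C57BL/6J wild-type mice in 4 groups of 3 libraries. Controlled cortical impact (CCI) drives a metal tip into the exposed cortex, here a 3 mm tip at 1.5 m/s to a depth of 1.5 mm with a dwell of 100 ms, and sham mice had the surgery without the blow. The first comparison, in libraries of 2018, set pericontusional tissue 7 days after TBI against sham tissue. The second, in libraries of 2022, set injured mice given zileuton, an inhibitor of 5-lipoxygenase injected intraperitoneally in corn oil at 10 mg/kg per day, against injured controls. The labels call these controls only TBI, and the study describes vehicle-treated mice, so they are called vehicle here. For the 3 zileuton mice the study and the library names give 7 days, while 1 label field gives 7, 8 and 9 days. The libraries of 2022 carry the column numbers 2, 3 and 6 in both groups, and the mice are named by them. The vehicle and zileuton mice were all injured, and no sham library of 2022 was analysed here.

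Each library held 42929862 to 48684674 counts in 2018 and 27845562 to 35453257 in 2022. Markers of neurons, astrocytes and oligodendrocytes were present in every library, with neuronal markers summing to between 4007 and 7193 CPM (counts scaled to the size of the library). Sham mouse 1 stood apart from the other sham mice in 4 choroid plexus markers, which summed to 1069 CPM against 18.3 and 54.4 CPM in sham mice 2 and 3 and 1150 to 1330 CPM in TBI mice. The mice are labelled male and Y-linked genes were counted in all 12 libraries, but Xist, the X-inactivation RNA of female cells, was counted 856 to 1155 times in each library of 2018 and at most 6.01 times in 2022. This held for sham and TBI mice alike, so no library could be set aside for it. Nothing in the labels says whether libraries came from mice of one litter or cage, and p-values measure the spread between these libraries.

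The genes differ in the sequence just before their start site, which is where transcription factors and the basal machinery assemble. The 250 bases upstream of the RefSeq start on GRCm38.p6 are shown for Tnf, the ligand that names the family, for Tnfrsf1b, the receptor gene with the largest log2 fold change after TBI among the 6, and for Tnfrsf12a, which carried the most GC boxes. All 3 lie on the minus strand and are written 5′ to 3′ along the gene. Capitals mark TATAAA and GGGCGG or their reverse complements.

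Tnf, chr17:35202008-35202257: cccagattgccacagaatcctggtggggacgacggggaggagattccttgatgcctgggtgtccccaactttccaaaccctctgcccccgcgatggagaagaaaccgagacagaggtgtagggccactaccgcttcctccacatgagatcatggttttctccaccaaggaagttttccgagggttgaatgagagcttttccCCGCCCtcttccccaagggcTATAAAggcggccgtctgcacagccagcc

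Tnfrsf1b, chr4:145246871-145247120: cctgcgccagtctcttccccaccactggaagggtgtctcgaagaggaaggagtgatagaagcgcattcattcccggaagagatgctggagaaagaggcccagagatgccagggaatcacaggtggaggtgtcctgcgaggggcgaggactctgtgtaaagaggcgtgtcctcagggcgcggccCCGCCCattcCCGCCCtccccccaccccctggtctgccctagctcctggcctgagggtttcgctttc

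Tnfrsf12a, chr17:23677450-23677699: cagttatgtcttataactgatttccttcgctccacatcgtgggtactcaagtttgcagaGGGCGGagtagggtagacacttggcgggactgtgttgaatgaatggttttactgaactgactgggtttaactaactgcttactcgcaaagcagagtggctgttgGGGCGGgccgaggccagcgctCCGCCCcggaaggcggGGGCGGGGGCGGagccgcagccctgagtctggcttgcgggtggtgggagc

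RefSeq promoters were found for 9 of the 10 genes (10 windows, as Tnfsf13b has more than 1 start); Tnfsf12 was not among them. Searched on both strands, TATAAA occurred in the Tnf window alone, 29 bases before the start, against 12.4% of all 32851 windows of this length. The GC box letters GGGCGG occurred in 6 of the 9 genes (Tnf, Tnfrsf1b, Tnfrsf11a, Tnfrsf12a, Tnfrsf21 and Fas) and in 32.7% of all windows. Tnfrsf12a held 5 of them, Tnfrsf1b 2 and Tnf 1. TTCNNNGAA, the STAT letters, occurred before Tnfrsf1a, Tnfrsf1b and Fas and in 7.02% of all windows. The AP-1 letters TGANTCA occurred before Fas and Tnfsf13b (6.75% of all windows). These are letter matches in a short window, not binding sites, and none of the data here measure binding.

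Transcript levels of the 10 genes spanned a wide range in sham brain. By FPKM, which allows for gene length, Tnfrsf21, the receptor DR6 of neurons and oligodendrocyte precursors, stood highest at 21.4 ± 1.81 FPKM (SD, n = 3). Tnfrsf12a (FN14, the receptor of TWEAK) followed at 4.48 ± 0.337 and Tnfrsf1a at 3.12 ± 0.232. Tnfsf12, Tnfrsf1b, Tnfrsf11a and Fas came next, from 1.65 down to 0.493 FPKM, with no overlap between neighbours in the 3 mice. Tnfsf10 (0.213 ± 0.0577) and Tnfsf13b (0.156 ± 0.0420) overlapped, and Tnf was lowest at 0.0337 ± 0.0584 FPKM. After TBI, Tnfrsf21 still led at 26.1 ± 1.64 FPKM, but Tnfrsf1a (13.4 ± 2.85) and Tnfrsf1b (8.38 ± 1.62) now came next, ahead of Tnfrsf12a at 7.71 ± 1.15. Tnfrsf1b and Tnfrsf12a overlapped, as did Fas and Tnfrsf11a, and Tnf and Tnfsf13b at the bottom of the order.

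**Figure D1:**
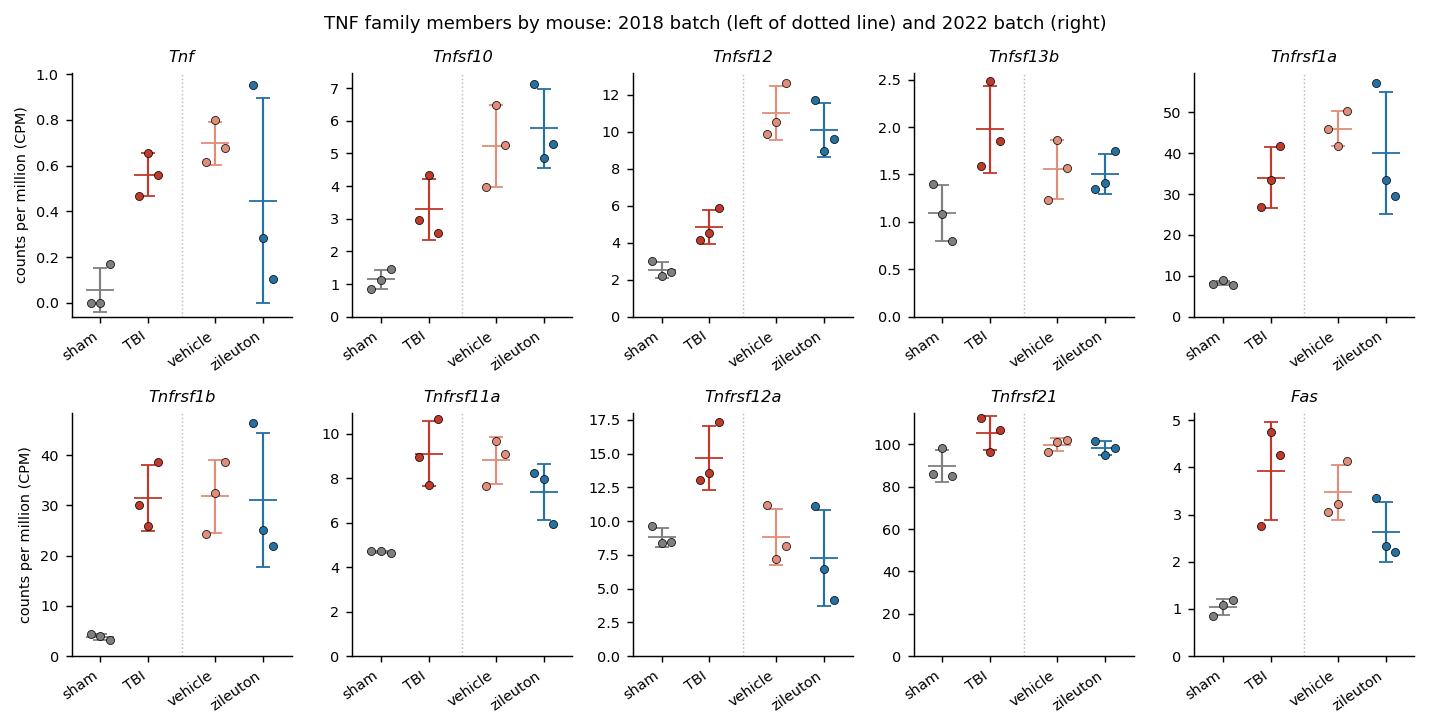
CPM (y axis, starting near 0) of each of the 10 genes in each mouse, with sham and TBI mice of 2018 left of the dotted line and vehicle and zileuton mice of 2022 right of it. Points are mice, and bars are the mean and SD of 3. The TBI mice lie above the sham mice in 9 panels and overlap them in that of Tnfrsf21, while vehicle and zileuton mice overlap in all 10; the batches were made from different kinds of counts and are not compared.

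Both TNF receptor genes and most other members were higher after TBI. Tnfrsf1b, Tnfrsf1a, Fas, Tnfsf10, Tnf, Tnfrsf11a, Tnfsf12 and Tnfrsf12a rose. The rises ran from 1.66-fold for Tnfrsf12a to 8.23-fold for Tnfrsf1b, with a poorly fixed 9.41-fold for Tnf, and Tnfsf13b and Tnfrsf21 did not pass the test. These 8 of 10 genes had a Benjamini-Hochberg adjusted p under 0.05 in edgeR's quasi-likelihood test, all of them higher, against 16.8% of the 19536 genes tested that were called higher. Without overlap between the 3 sham and the 3 TBI mice, 9 of the 10 were higher, against 24.6% of all genes tested. Because the 10 were chosen with earlier results of these data known, setting them beside these shares is description and not an independent test. The median log2 fold change of the 10 was 1.24, and that of all genes tested was 0.02. Leaving out 1 mouse at a time left 6 to 8 members past the threshold.

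Among the ligands, Tnf (chr17:35199381-35202007 on GRCm38) was near the limit of detection in sham brain. It was counted 0, 0 and 8 times in the sham mice and 23, 32 and 24 times in the TBI mice, so every TBI mouse was above every sham mouse. In CPM this was 0.0561 ± 0.0972 in sham and 0.560 ± 0.0947 in TBI (SD, n = 3 each). The log2 fold change was 3.23 (SE 0.932, 95% interval 1.12 to 5.35, adjusted p = 0.0311 by edgeR). In the libraries of 2018, even numbers made up 62.3% to 64.4% of the counts of 1 to 20, as would arise if both reads of a pair were counted, and a count of 0 then allows up to 6. The Tnf call and its fold rest on few reads. Leaving out any mouse other than sham mouse 3 gave folds of 6.30 to 10.2 and adjusted p-values of 0.0540 to 0.0911. Without sham mouse 3 the remaining sham mice are at 0, the adjusted p was 0.00545, and Tnf was at least 4.27-fold higher against 6 counts per sham library.

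Tnfsf10 encodes TRAIL, a death ligand induced by interferons. Its counts were 38, 52 and 69 in sham mice and 145, 212 and 111 in TBI mice, so that the lowest TBI mouse was above the highest sham mouse. It rose 2.88-fold (log2 1.53, SE 0.30, adjusted p = 0.00588 by edgeR). Tnfsf12 encodes TWEAK, the ligand of FN14, and was counted 136, 101 and 115 times in sham and 204, 219 and 253 times in TBI mice. It rose 1.90-fold (log2 0.93, SE 0.219, adjusted p = 0.0134 by edgeR). On GRCm38 all 9600 bases of Tnfsf12 (chr11:69686250-69695849) lie within the readthrough gene Tnfsfm13, and 4892 of them face the antisense gene Tnfsf13os, so its counts are uncertain. Its adjusted p was 0.0508 without sham mouse 2 and 0.0549 without sham mouse 3. Tnfsf13b encodes BAFF, a survival factor of B cells that myeloid cells and astrocytes make. Its counts of 63, 50 and 38 in sham and 78, 121 and 80 in TBI mice did not overlap, but the log2 fold change of 0.85 (SE 0.306, 95% interval 0.16 to 1.55) had an adjusted p of 0.0687 in edgeR. On the opposite strand Gm44789 covers 3101 of its bases.

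Among the receptors, the genes for the receptors of TNF itself had the smallest adjusted p-values. Tnfrsf1b, which encodes TNFR2 (chr4:145213463-145246870 on GRCm38), was counted 195, 187 and 148 times in sham and 1476, 1259 and 1668 times in TBI mice. The mean went from 3.83 ± 0.634 to 31.5 ± 6.57 CPM (SD, n = 3 each), and the groups lay far apart. This was an 8.23-fold rise (log2 3.04, SE 0.187, adjusted p = 1.67e-05 by edgeR), the smallest adjusted p of the 10. Tnfrsf1a, which encodes TNFR1 (chr6:125349362-125362484), was counted 365, 412 and 367 times in sham and 1325, 1628 and 1802 times in TBI mice. It rose 4.13-fold (log2 2.05, SE 0.161, adjusted p = 4.42e-05 by edgeR). Both calls held without any single mouse, with adjusted p-values up to 0.000304 for Tnfrsf1b and 0.000624 for Tnfrsf1a.

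Within each library the balance of the TNF receptors was also read as the ratio of Tnfrsf1b to Tnfrsf1a FPKM. It was 0.363, 0.308 and 0.274 in sham mice and 0.756, 0.525 and 0.628 in TBI mice. All 3 TBI ratios were above all 3 sham ratios, with means of 0.636 ± 0.116 and 0.315 ± 0.0448 (SD, n = 3 each), and no test was made of them. Tnfrsf1b transcripts stayed below those of Tnfrsf1a per length in every mouse. The ratio of the receptor Tnfrsf12a to its ligand Tnfsf12 was 2.75 ± 0.256 in sham and 2.38 ± 0.0788 in TBI mice, and here the lowest sham ratio, 2.50, was close to the highest TBI ratio, 2.47.

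Fas, the death receptor of activated lymphocytes and stressed cells (chr19:34290666-34327772), was counted 38, 50 and 56 times in sham and 136, 231 and 184 times in TBI mice. The 3.78-fold rise (log2 1.92, SE 0.277) had an adjusted p of 0.00122 in edgeR. Tnfrsf11a encodes RANK, known for its role in osteoclasts and found on myeloid cells. Its sham counts of 212, 219 and 221 were close together and its TBI counts were 441, 376 and 459. That is a 1.94-fold rise (log2 0.96, SE 0.161, adjusted p = 0.00270 by edgeR). Tnfrsf12a (chr17:23675445-23677468) went from 434, 388 and 400 counts to 643, 660 and 748. It rose 1.66-fold (log2 0.73, SE 0.144, adjusted p = 0.00581 by edgeR), with every TBI mouse above every sham mouse. Tnfrsf21, the most abundant member, had 85.9, 98.2 and 85.2 CPM in sham and 113, 96.6 and 107 CPM in TBI mice. TBI mouse 2 lay below sham mouse 2, and the 1.17-fold difference (log2 0.23, SE 0.0878, 95% interval 0.03 to 0.43) had an adjusted p of 0.0819 in edgeR. It passed the threshold when libraries were scaled by their totals alone (0.0362), without TBI mouse 2 (0.0430), and in limma on log2(FPKM + 1) and log2(FPKM + 0.1) for genes with a mean of at least 0.5 (0.0413 and 0.0412).

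**Figure D2:**
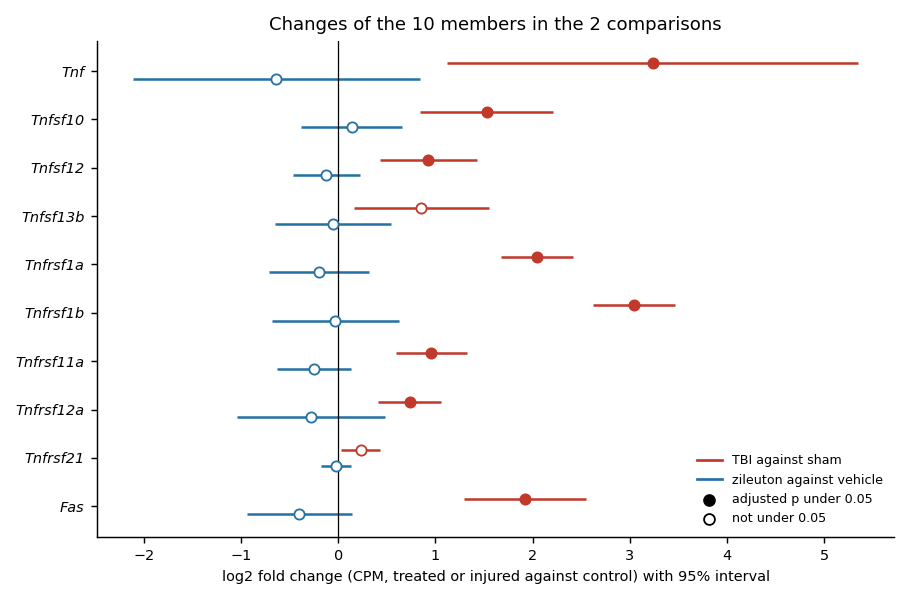
Log2 fold change of each member (x axis) with its 95% interval, for TBI against sham in red and zileuton against vehicle in blue; filled points have an adjusted p under 0.05. After TBI the intervals of all 10 lie above 0 and 8 points are filled; with zileuton all 10 intervals include 0 and no point is filled, from -0.64 for Tnf to 0.14 for Tnfsf10.

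Markers of other cells moved with the same contrast. All 6 microglial and all 8 macrophage and monocyte markers rose, their sums going from 270.5 to 317 CPM in sham to 790 to 1006 CPM in TBI mice and from 21.7 to 26.3 to 671 to 1435 CPM. Neutrophil markers went from 0.605 to 1.33 CPM up to 15.2 to 58.5 CPM, with all 3 tested of 6 called higher; Camp and Ly6g were at 0 in all sham mice. Of 6 neuronal markers 3 fell and none rose, while 5 of 6 astrocyte, 4 of 5 oligodendrocyte, 4 of 5 endothelial and 5 of 5 fibroblast markers rose. The 4 choroid plexus markers did not pass the test. T cell markers summed to 8.47 to 22.3 CPM in sham and 4.78 to 30.4 CPM in TBI mice. Most of this sum was Cd4, with means of 12.5 CPM in sham and 12.3 CPM in TBI mice. Of 3 tested, 1 was called higher, Cd3g, from a mean of 0.0288 to 0.392 CPM, and Cd4 and Lck were not called. Cd3d, Cd3e and Cd8a did not pass the filter. Of 2 tested B cell markers, 1 rose. Their part in the changes of the TNF family was not tested. In bulk tissue, more cells of a type and more RNA per cell cannot be told apart.

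The rest of the superfamily was described by lists of 18 ligand and 28 receptor genes that include the members. These lists and those that follow were also chosen with earlier results known, so their counts are description. Of the 9 ligand genes that passed the filter, 4 were called higher and none lower, but Tnf and Tnfsf8 had fewer than 10 counts in every sham mouse and passed only through TBI mice, so this count is in part set by the filter. With all 18 ligand genes in a fit of every gene with at least 1 count, 8 were called higher and none lower. That wider fit called 5547 genes in all, 59.1% of them higher. Among the 9 that passed the filter, Tnfsf8 (CD30 ligand) was the ligand outside the 10 members that was called higher. It was counted 0 times in the 3 sham mice and 28, 22 and 61 times in TBI mice. This was at least 6.27-fold higher against 6 counts per sham library (adjusted p = 0.00277 by edgeR). The other 9 ligand genes, several of them products of lymphocytes, did not pass the filter. Of 27 receptor genes tested, 13 rose and none fell, and 13 of 28 rose in the wider fit. Of the 19536 genes that passed the filter, 16.8% were called higher, a share that does not cover the wider fit. Tnfrsf26 passed the filter only through TBI mice. Tnfrsf26 went from 4, 0 and 2 counts to 18, 24 and 30 (log2 3.50, SE 0.750, adjusted p = 0.00880). Eda2r, the p53-responsive receptor of ectodysplasin A2, went from 18, 16 and 6 counts to 89, 104 and 126 (log2 2.97, SE 0.426, adjusted p = 0.00118). Cd40, the costimulatory receptor of antigen-presenting cells, went from 6, 0 and 12 counts to 24, 54 and 40 (log2 2.68, SE 0.779, adjusted p = 0.0323). TBI and sham mice did not overlap for any of these 4 genes, and these p-values are edgeR's, adjusted over all 19536 genes.

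**Figure D3:**
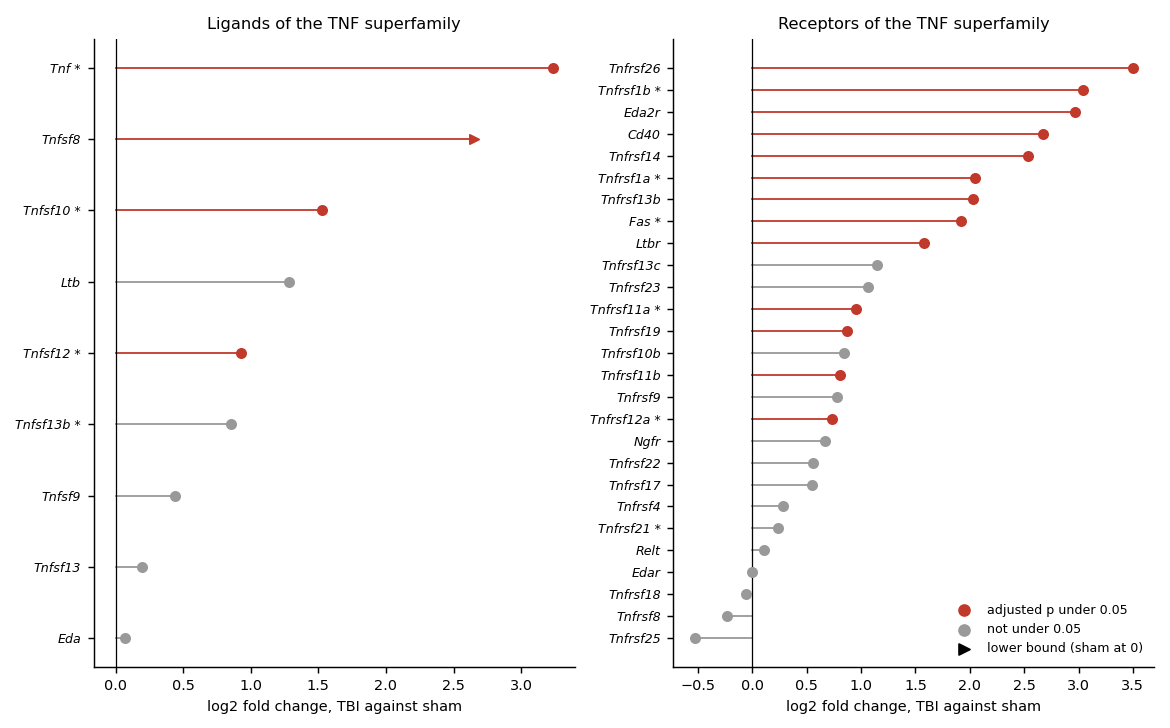
Log2 fold change of TBI against sham (x axis) for the 9 ligand and 27 receptor genes tested, with the 10 members starred; red points have an adjusted p under 0.05 and the arrowhead is a lower bound set by 6 counts per sham library. Red marks stand right of 0 for 4 ligands and 13 receptors; the 4 receptors left of 0 are grey.

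TNF is released from the cell surface by the protease ADAM17, which matures with the help of the iRhom proteins encoded by Rhbdf1 and Rhbdf2. Of 5 genes of this step, 3 rose and none fell, with a median log2 fold change of 0.64. Over all genes tested, 16.8% were called higher. Adam17 went from 721, 721 and 775 counts to 1885, 1888 and 1954, with little spread within either group (log2 1.35, SE 0.0945, adjusted p = 2.47e-05 by edgeR). Rhbdf2, the iRhom of myeloid cells, went from 0.834 ± 0.43 to 4.44 ± 1.1 CPM (SD, n = 3 each; log2 2.41, SE 0.413, adjusted p = 0.00299 by edgeR). Rhbdf1 rose by 0.64 on the log2 scale (SE 0.139, adjusted p = 0.00913 by edgeR). The related protease gene Adam10 and the inhibitor gene Timp3 had log2 fold changes of 0.09 and 0.23 with adjusted p-values of 0.377 and 0.219.

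Downstream of the receptors, 11 of 31 genes for adaptors, ubiquitin enzymes, kinases and caspases rose and 1 fell, with a median log2 fold change of 0.305. Of all genes tested, 16.8% were called higher and 11.2% lower. Traf1, an inducible adaptor of TNFR2, went from 8, 10 and 12 counts to 157, 213 and 129 (log2 4.01, SE 0.304, adjusted p = 3.63e-05). Mlkl, the pore-forming executor of necroptosis, went from 2, 4 and 8 counts to 59, 44 and 86 (log2 3.73, SE 0.544, adjusted p = 0.00131). It had fewer than 10 counts in every sham mouse and passed the filter only through TBI mice. With every gene of at least 1 count in the fit, 11 of the 31 rose and 1 fell. The shares of 16.8% and 11.2% do not cover that fit, which called 5547 genes in all, 59.1% of them higher. Casp8, the initiator caspase of death receptors, went from 101, 85 and 70 counts to 438, 468 and 550 (log2 2.49, SE 0.221, adjusted p = 8.13e-05). Map3k5, the kinase ASK1, was the one that fell, from 49.7 ± 3.3 to 38.8 ± 1.5 CPM (log2 -0.36, SE 0.0805, adjusted p = 0.0111). Groups did not overlap for these 4 genes, and the p-values are edgeR's. The NF-kappaB core list had 8 of 13 genes higher and none lower, with a median log2 fold change of 0.67. Its steepest rises were in Bcl3 (log2 3.89, SE 0.395), Nfkb2 (log2 2.11, SE 0.191) and Relb (log2 1.35, SE 0.161), which encode a nuclear I-kappaB protein and the NF-kappaB subunits of the non-canonical branch.

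Genes known to be induced by TNF in many cell types were called higher in 13 of 18 cases and lower in none, against 16.8% of all genes tested called higher. With every gene of at least 1 count in the fit, 13 of 20 were called higher. The share of 16.8% does not cover that fit, which called 5547 genes in all, 59.1% of them higher. Of the 18, 5 chemokine genes passed the filter only through TBI mice (Ccl2, Ccl5, Cxcl1, Cxcl2 and Cxcl10). Sod2, the mitochondrial superoxide dismutase, had a log2 fold change of -0.22 (SE 0.0759, adjusted p = 0.0578 by edgeR) and was called lower with DESeq2's size factors (0.0412), in DESeq2 (0.0380) and with halved counts (0.0476). Sham mice held no count of the chemokine gene Cxcl2 and TBI mice held 70, 62 and 192, which is at least 18.4-fold higher when each sham library is given 6 counts. Ccl5 went from 0, 0 and 2 counts to 124, 272 and 191, and Cxcl10 from 6, 4 and 4 to 371, 793 and 885. Their edgeR adjusted p-values were 0.00136 for Cxcl2, 6.61e-05 for Ccl5 and 2.15e-05 for Cxcl10. These genes answer to other cytokines as well. Because strand use in counting is not stated, reads could be shared with overlapping genes on the opposite strand for Tnfrsf26, Adam17, Mlkl, Bcl3, Nfkb2, Cxcl10, Ccl2, Traf3 and Timp3, the last of which has 49135 bases opposite the neuronal gene Syn3.

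The zileuton comparison addressed whether the same genes differ when 5-lipoxygenase is inhibited in injured brain. None of the 10 members had an adjusted p under 0.05 in edgeR, none had an unadjusted p under 0.05, and DESeq2 also called none. For scale, 6.83% of the 17363 genes tested had an unadjusted p under 0.05 and 0% an adjusted p under 0.05. The median log2 fold change of the 10 was -0.16, against 0.00254 over all genes tested. Fitted values were lower with zileuton for 9 members and higher for Tnfsf10, but vehicle and zileuton mice overlapped in all 10, whereas 13.6% of all genes tested did not overlap. The signs of Tnfrsf1b, Tnfsf13b, Tnfsf10 and Tnfrsf21 turned under some alternative settings.

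Tnf was counted 18, 28 and 19 times in vehicle mice and 29, 9 and 3 times in zileuton mice 2, 3 and 6. Zileuton mouse 2 was the highest of the 6 and mouse 6 the lowest, so the groups overlapped. The fold change was 0.643 with a 95% interval of 0.231 to 1.79 (adjusted p = 0.827 by edgeR); the interval spans both a fall and a rise. Tnfrsf1a showed the same order, with 1338, 1464 and 1410 counts in vehicle mice and 1736, 1068 and 849 in zileuton mice (0.872-fold, 95% interval 0.610 to 1.25). Tnfrsf1b was counted 706, 1136 and 1082 times with vehicle and 1408, 796 and 627 times with zileuton (0.978-fold, 95% interval 0.622 to 1.54). Tnfrsf12a was counted 326, 252 and 229 times with vehicle and 338, 206 and 120 times with zileuton (0.822-fold, 95% interval 0.485 to 1.39).

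Fas went from 89, 113 and 116 counts to 102, 74 and 63 (0.757-fold, 95% interval 0.521 to 1.10), the smallest unadjusted p of the 10 at 0.125 by edgeR. Tnfrsf11a was 0.840-fold (95% interval 0.645 to 1.09) and Tnfsf12 0.917-fold (0.722 to 1.16). Tnfsf10 was 1.10-fold (0.767 to 1.58) and Tnfsf13b 0.963-fold (0.637 to 1.46). Tnfrsf21 had the narrowest interval, 0.984-fold with bounds of 0.887 and 1.09. The ratio of Tnfrsf1b to Tnfrsf1a TPM was 0.246, 0.417 and 0.411 in vehicle mice and 0.430, 0.425 and 0.372 in zileuton mice, overlapping in range.

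**Figure D4:**
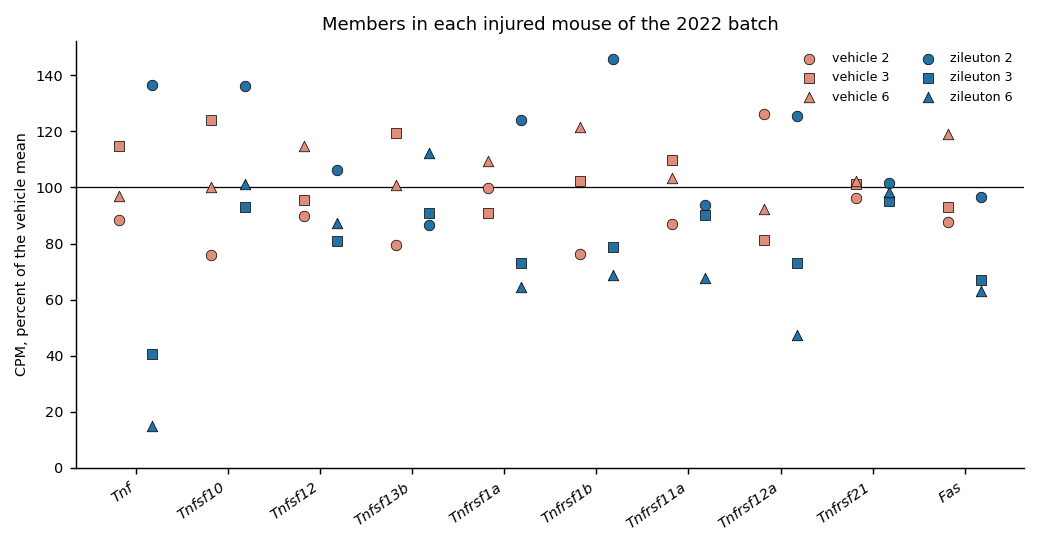
CPM of each member in each injured mouse of 2022, as percent of the vehicle mean (y axis from 0; the line is 100), with vehicle mice in orange and zileuton mice in blue and 1 marker shape per column number. Zileuton mouse 2 lies above zileuton mice 3 and 6 for 9 of 10 members, and for Tnf the zileuton mice spread from 15.0 to 137 percent.

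The spread within the zileuton group was wide for several members. The coefficient of variation of Tnf CPM was 100% with zileuton and 13.4% with vehicle, that of Tnfrsf1a 37.1% and 9.16%, and that of Tnfrsf12a 48.7% and 23.4%. It was larger with zileuton for 7 of the 10 members, against 46.0% of all genes tested. Zileuton mouse 2 was the highest zileuton mouse for 9 of the 10 and mouse 6 the lowest for 6. Without zileuton mouse 2, Tnf (log2 -1.81, SE 0.535), Tnfrsf1a (log2 -0.54, SE 0.110), Tnfrsf12a (log2 -0.73, SE 0.256) and Fas (log2 -0.62, SE 0.231) had unadjusted p-values of 0.0105, 0.00142, 0.0235 and 0.0301 in edgeR, with adjusted p-values from 0.298 to 0.421. Over all genes, 1909 had an unadjusted p under 0.05 in edgeR without zileuton mouse 2, against 1186 with every mouse. The mouse left out was the highest zileuton mouse for Tnf, Tnfrsf1a, Tnfrsf12a and Fas. No single omission of another mouse gave any member an unadjusted p under 0.05. Markers of macrophages and monocytes summed to 514, 901 and 1464 CPM in vehicle mice 2, 3 and 6 and to 1025, 548 and 527 CPM in zileuton mice 2, 3 and 6. None of the 8 passed the adjusted test, which no gene passed in this comparison. Fitted values were lower with zileuton for all 8 of these markers, with a median log2 fold change of -0.59. Of the 8, 2 had an unadjusted p under 0.05 in edgeR, against 6.83% of all genes tested. Vehicle and zileuton mice did not overlap in 2 of the 8, against 13.6% of all genes tested. Microglial markers summed to 833 to 1271 CPM with vehicle and 911 to 1237 CPM with zileuton. Choroid plexus markers ranged from 8.84 to 1040 CPM with vehicle and from 13.9 to 1456 CPM with zileuton. Their part in the spread of the members was not tested.

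No gene of the wider lists passed an adjusted p of 0.05 with zileuton. Those with an unadjusted p under 0.05 in edgeR were Traf3, Timp3, Edar and Ccl2. The lists tested held 9 ligand, 26 receptor, 5 TNF release, 31 downstream, 13 NF-kappaB core and 17 TNF-induced genes. Of all 17363 genes tested, 6.83% had an unadjusted p under 0.05, so these 4 genes are named as description. Traf3, an inhibitor of non-canonical NF-kappaB signalling, was 50.1 ± 1.9 CPM with vehicle and 60.0 ± 2.1 CPM with zileuton (SD, n = 3 each; log2 0.26, SE 0.0695, adjusted p = 0.713 by edgeR). Timp3, the inhibitor of ADAM17, was 120 ± 5.6 and 141 ± 11 CPM (log2 0.23, SE 0.0799, adjusted p = 0.713 by edgeR). Edar, the ectodysplasin receptor, had 8, 8 and 21 counts with vehicle and 39, 30 and 20 with zileuton (log2 1.24, SE 0.499, adjusted p = 0.713 by edgeR). Ccl2, the chemokine that draws monocytes, had 130, 129 and 75 counts with vehicle and 80, 43 and 26 with zileuton (log2 -1.14, SE 0.385, adjusted p = 0.713 by edgeR), and these groups overlapped in counts though not in CPM. Of the genes with the next smallest p in their lists, Ltb, Tnfsf9, Ngfr, Rhbdf1, Map3k7, Nfkbia, Ikbkb and Lif, none reached an unadjusted p of 0.05. Genes that rose after TBI had zileuton log2 fold changes of -0.22 for Tnfsf8, -0.45 for Tnfrsf26, 0.32 for Eda2r and -0.50 for Cd40, and the NF-kappaB genes Bcl3, Nfkb2 and Relb had -0.51, -0.02 and 0.02. Rhbdf2, Adam17 and Rhbdf1 had -0.10, 0.03 and -0.19, and Traf1, Mlkl, Casp8 and Map3k5 had -0.42, -0.42, -0.28 and -0.01. Ccl5 and Cxcl10 had -0.32 and -0.30, and Cxcl2 did not pass the filter.

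Genes with the pattern most like 3 of the members were sought over the 12 libraries, after each batch was centred on its mean. Among 16516 genes, Tnfrsf1a was closest to S100a11 (Pearson r = 0.994), Tmem173 (0.992) and Tgfbi (0.992). They encode a calcium-binding protein, the adaptor STING of nucleic-acid sensing and a matrix protein of macrophages. Their values within the vehicle and zileuton libraries alone were 0.976, 0.945 and 0.976. For Tnf the closest were E2f2 (0.961), Rhob (0.956) and Prkra (0.951), a ranking that rests on few Tnf reads. Tnfrsf12a was closest to Ppcs (0.962), Crlf2 (0.948) and Plekhj1 (0.944). These r describe likeness across libraries that share the TBI contrast, and no test was made of them.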

How the data were processed

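Per the labels, brain tissue RNA of 12 mice was sequenced in 2 batches. The members and lists were chosen with earlier results of these data known. For 2018 the authors deposited whole read counts per Ensembl gene and FPKM. For 2022 the authors deposited estimated counts, of which 13.0% to 15.2% of values were not whole, and TPM; 223 assembled loci held 0.209% of the counts. The submitters' processing notes name HISAT2, featureCounts, Subread and DESeq2 and the build GRCm39, without versions; annotation and strand use are not given in the sources used here. Positions are from GENCODE M21 on GRCm38, another build.

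Symbols matched 34808 and 52081 identifiers. Estimated counts were rounded, although the plan assumed raw counts. Each batch was fitted alone with edgeR 4.0.16 in R 4.3.3 (TMM factors, filterByExpr, quasi-likelihood test), adjusted by Benjamini and Hochberg over 19536 and 17363 genes. The SE is the log2 fold change divided by the square root of F; intervals are 95%. CPM use TMM library sizes. An exact permutation test of 3 against 3 mice cannot go below 0.1 and was not used. Limits from a count of 0 are 3 counts, or 6 in 2018, and cover counting error only. Alternatives were other scalings, DESeq2 1.42.0, filters, limma 3.58.1 on log2(FPKM or TPM + 1 or 0.1), an equal-variance two-sample test on FPKM or TPM with adjustment (the study names a two-sided test without adjustment and no unit), a length correction, halved counts, a replicate block and leaving out each mouse. The fit was tested on simulated data. Named genes were the 10 members, up to 3 rises and 2 falls per list that passed the test without overlap after TBI, and the 2 smallest zileuton p-values per list. No column with values per sample was left out. Figures used Python 3.11.15 and matplotlib 3.10.9.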

Additional observations from a re-analysis of the deposited data

How the results depend on the processing

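After TBI, leaving out each mouse left 6 to 8 members, 3 to 7 ligand genes and 3848 to 4956 of all genes past the adjusted threshold; the 7 ligand genes came without TBI mouse 1. A two-sided equal-variance two-sample test on FPKM, with adjusted p-values and a mean FPKM of at least 0.5, left 3 of the 7 members that could enter (Tnfrsf1a, Tnfrsf1b and Tnfrsf11a), 0 ligand, 6 receptor and 5 TNF-induced genes, and 2625 of all genes. Ligand genes past the threshold numbered 8 with DESeq2 and with every gene of at least 1 count, and 1 in limma on log2(FPKM + 1) or log2(FPKM + 0.1) with a mean of at least 0.5; TNF-induced genes numbered 7 with at least 10 counts in every library. Fewer genes enter under these filters: Tnf, Tnfsf10 and Tnfsf13b lie under a mean FPKM of 0.5, and Tnf under 10 counts in every library. Without adjustment, the threshold the study states for its own test, all 7 passed. In the two-sample test Tnfsf12, Tnfrsf12a and Fas had adjusted p-values of 0.0608, 0.0538 and 0.0537.

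With zileuton, no member passed an adjusted p of 0.05 under any alternative, and 0 to 4 passed an unadjusted p of 0.05 when each mouse was left out, the 4 without zileuton mouse 2. All genes past an unadjusted p of 0.05 numbered 1186, and 689 to 1909 with each mouse left out (1909, 689 and 777 without zileuton mice 2, 3 and 6) and 720 with the length trend removed. Of these calls 42.9% were higher, but 64.0% in limma on log2(TPM + 1) and 71.7% in the two-sample test on TPM. Signs turned without a call: Tnfrsf1b to 0.00082 in limma on log2(TPM + 1) and 0.057 in the two-sample test, and -0.44 to 0.17 with each mouse left out. Tnfsf13b turned to 0.015 and 0.013 in limma on log2(TPM + 1) and log2(TPM + 0.1), 0.026 in the two-sample test and 0.0029 with the length trend removed, and ranged from -0.19 to 0.10 with each mouse left out. Tnfrsf21 turned to 0.025 and 0.026 in limma and 0.026 in the two-sample test, and Tnfsf10 ranged from -0.045 to 0.32 with each mouse left out. The cause was not tested.

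Correlations of same-numbered deviations were -0.02, -0.09 and -0.03 in 2018 and -0.28, 0.06 and -0.28 in 2022. Not every library correlated best with its own number. With 3 libraries per group centred on their mean, these values cannot decide whether replicate numbers pair the mice. With a replicate block 7 members passed after TBI (Tnf: adjusted p = 0.0529), and 729 genes had an unadjusted p under 0.05 with zileuton, none of them a member. Depth limits Tnf and the lymphocyte ligands, whose counts are near 0 in sham mice.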

Other observations

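Some ligand genes that did not pass the filter were counted mainly in TBI mice, and the 4 named here were called higher by DESeq2 and with every gene of at least 1 count in edgeR. They were singled out after their values were seen. Tnfsf14 (LIGHT, a ligand of HVEM and of the lymphotoxin beta receptor) was counted 0, 2 and 0 times in sham and 8, 26 and 33 times in TBI mice. Tnfsf18 (GITR ligand) had 0 counts in each sham mouse and 2, 16 and 30 in TBI mice, and Cd70 had 0 in each and 4, 12 and 6. Tnfsf11 (RANK ligand) had 0, 0 and 2 counts in sham and 0, 16 and 32 in TBI mice, so TBI mouse 1 held none. In TBI mouse 1 all 4 were lower than in TBI mice 2 and 3.

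The genes of the receptors of LIGHT, also chosen after their values were seen, were called higher after TBI. Tnfrsf14 (HVEM) went from 13, 17 and 9 counts to 79, 62 and 89 (log2 2.54, SE 0.373, adjusted p = 0.00136 by edgeR), and Ltbr from 316, 279 and 316 to 729, 912 and 1090 (log2 1.58, SE 0.192, adjusted p = 0.00048 by edgeR). With zileuton their log2 fold changes were -0.25 (SE 0.320) and 0.02 (SE 0.217).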
